A study of Danio rerio with 2 samples.

Results

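The *glis1b* and *rfx2* fibroblasts were 206 of 3919 kept cells (5.26%, 95% Clopper-Pearson interval 4.58% to 6.002%) of a single-cell RNA sequencing library from the adult zebrafish jaw joint. They were chosen by what they expressed. A cell was taken if it held at least 1 UMI (a counted RNA molecule) of at least 2 of *glis1b* (LL0000011377), *rfx2* (LL0000023578) and *il15l* (LL0000012651), fewer than 2 UMIs of *mamdc2b* and fewer than 3 of *epcam*, and was under a limit on 1 further gene. *glis1b*, *rfx2* and *il15l* are called the rule genes, and the chosen cells the members. All 3713 other kept cells of the library are the cells they are set against.

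Live cells were sorted from 50 pooled jaw joints of 3-month-old double transgenic fish, carrying both *sox10:DsRed* and *trps1:eGFP*, and each sorted fraction was run once on the 10x Chromium 3' v2 platform. By the labels, the *trps1:eGFP*-enriched library came from GFP-positive cells and the *sox10:DsRed*-enriched library from DsRed-positive cells with or without GFP. The study's results section instead calls the *trps1:eGFP* sort positive for both reporters, and which gate was used was not settled here. Every cell came from animals carrying both transgenes. Each sort gave a single library and therefore no replicate. No difference could be tested, and every interval covers counting error only.

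Cell Ranger had called 4876 barcodes in the *trps1:eGFP*-enriched library, with 17424489 UMIs in all. Per barcode the medians were 3054.5 UMIs and 880 genes. Of these barcodes, 3919 had 500 to 2000 genes and at most 5% of UMIs on mitochondrial genes and were kept. The *sox10:DsRed*-enriched library was smaller and shallower, with 242 of 462 barcodes kept and a median of 1281.5 UMIs. The libraries shared 16 barcode sequences, and none of the members had one of these. Members had a median of 3726 UMIs, from 1183 to 11298, against 3642 in all other kept cells and 3079 in the other cells that passed these limits. Gene levels are given in CPM, the summed UMIs of a gene in a group of cells after scaling every group to the same total.

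Fibroblasts are the mesenchymal cells that build and remodel the collagenous matrix of connective tissues, and around a joint they fill the capsule, the periosteum and the dermis. Glis1b belongs to the GLIS family of zinc finger transcription factors, relatives of the GLI factors of Hedgehog signalling. Rfx2 is a winged-helix transcription factor known in vertebrates for the control of cilia genes, and Il15l is a cytokine of the interleukin 15 family. Epcam is an adhesion protein of epithelial cells.

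For comparison, groups were taken from the other kept cells in order by their counts. The 350 *epcam*-high cells had at least 3 *epcam* UMIs and the 284 *mamdc2b*-high cells at least 2 *mamdc2b* UMIs. Of the cells that passed every limit and were not members, 531 had at least 2 UMIs of *sfrp2*, a secreted Wnt modulator, and are called *sfrp2* cells. The other 1632 are called the remaining cells. These groups do not cover all other kept cells.

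The rule genes were found as few UMIs per cell. *glis1b* was found in 130 members (63.1%), with 97 members at 1 UMI and the highest at 5 UMIs. *rfx2* was found in 151 members (73.3%), with 107 at 1 UMI and the highest also at 5. *il15l* was found in 155 members (75.2%) and spread further, with 72 members at 1 UMI, 21 at 10 or more and the highest at 40. So 2 of the genes that define the cells were read mostly from single molecules, and the third was very uneven among them.

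The levels of the rule genes follow from the choice of the cells and are given as a description. *glis1b* stood at 220 CPM (95% Poisson interval 189 to 255) in members, against 24.5 CPM in the other cells passing the limits and 57.6 CPM in all other kept cells. *rfx2* stood at 263 CPM (229 to 301) in members, against 39.4 and 67.9 CPM in the same groups. *il15l* stood at 798 CPM (738 to 862) in members, against 130 and 176 CPM. Of the other groups plotted, *mamdc2b*-high cells were highest for *glis1b* and *il15l*, and *epcam*-high cells for *rfx2*. *epcam*-high cells held *glis1b* in only 2.57% of cells at a median of 6148 UMIs, but *rfx2* in 29.4% (70.5 CPM) and *il15l* in 18.6% (68.1 CPM). With each cell thinned to 1000 UMIs, *glis1b* was found in 21.8% of members against 5.50% of all other kept cells, *rfx2* in 21.4% against 5.96%, and *il15l* in 37.9% against 10.7%.

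**Figure D1:**
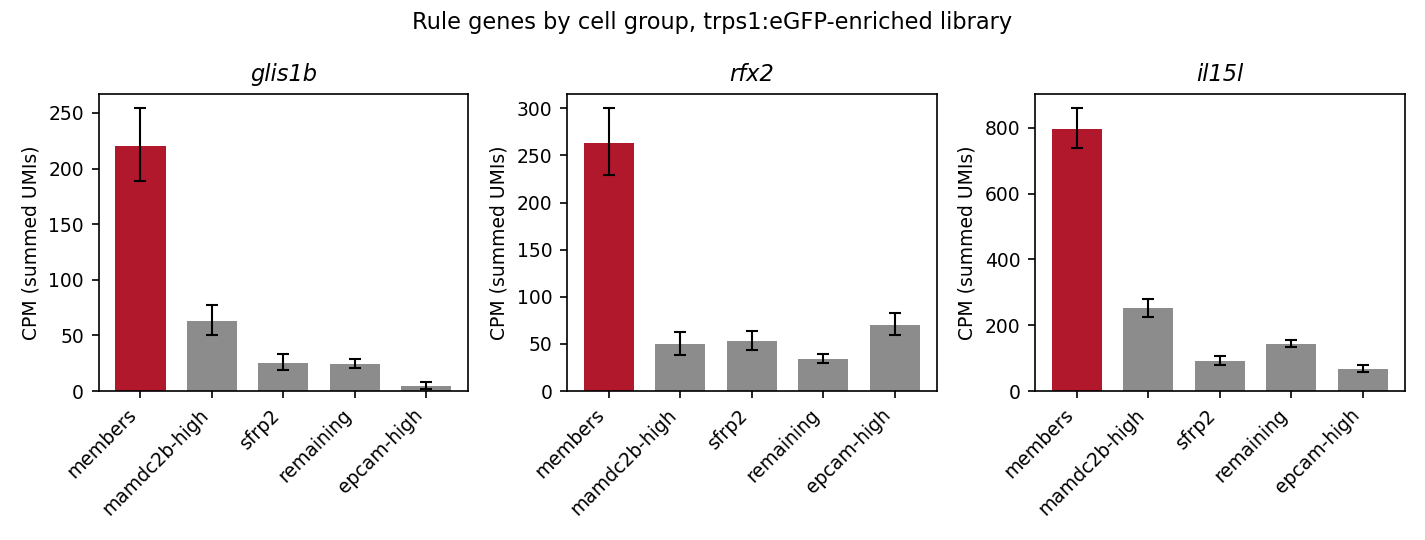
Levels of *glis1b*, *rfx2* and *il15l* (CPM of summed UMIs, linear axis from 0) in members (red) and 4 groups of other kept cells (grey) of the *trps1:eGFP*-enriched library; error bars are 95% Poisson intervals. Members were chosen on these genes and stood highest in each panel, at 220 CPM of *glis1b*, 263 CPM of *rfx2* and 798 CPM of *il15l*.

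The limits decided which cells with these genes were members. Of 530 kept cells with at least 2 rule genes, 206 (38.9%) were members and 324 (61.1%) were put out by the limits. At least 2 rule genes were found in 15.5% of *mamdc2b*-high cells and in 21 of the 350 *epcam*-high cells.

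At the edge set by the number of rule genes, the 182 members with exactly 2 held 607 CPM of the keratin gene *krt94* and 2735 CPM of *col1a2*, a type I collagen gene, against 393 and 8175 CPM in the 740 passing cells with 1 rule gene. Both genes had been picked for a large fold of members against all other kept cells, which largely fixes these directions.

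Each rule gene was also read in cells chosen by the other pair. This is a description, since the rule was set with earlier results of these data known. Among cells passing the limits, *glis1b* was found in 24 of 100 cells that held both other genes (24.0%, 16.0% to 33.6%), against 9.02% of the 1564 cells that held neither. *rfx2* was found in 24 of 79 (30.4%, 20.5% to 41.7%) against 13.9% of 1652. *il15l* was found in 24 of 75 (32.0%, 21.7% to 43.8%) against 20.6% of 1793. Cells holding both were deeper in each case, for *glis1b* with a median of 3963 against 2988.5 UMIs. After thinning to 1000 UMIs the shares were 27.6% against 5.63% for *glis1b*, 21.1% against 6.66% for *rfx2* and 38.1% against 12.2% for *il15l*, but the first of each rested on 8 cells. The limits were applied to the thinned counts and are looser there, so more cells passed than in the counts as deposited. Cells with only 1 of the other pair lay between, at 15.04%, 19.9% and 26.2% for *glis1b*, *rfx2* and *il15l* in the counts as deposited. For *il15l* their interval (22.35% to 30.23%) lay within that of cells holding both. After thinning, cells with only 1 of the other pair stood at 7.40%, 6.27% and 13.2%. Cells holding neither stood at 5.63%, 6.66% and 12.2%, so those with 1 no longer lay clearly between. Only 24 cells of the library passed the limits with all 3 rule genes.

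Members were also chosen on a random split of each cell's UMIs, with genes read from the UMIs not used for the choice. In the 139 cells chosen that way, *glis1b* stood at 140 CPM (100 to 190) against 62.0 CPM in all others, *rfx2* at 184 CPM (138 to 240) against 71.6 CPM, and *il15l* at 1016 CPM (904 to 1138) against 174 CPM. All 3 intervals lay above the level of the other cells, but the cells were chosen on the same 3 genes. These levels are therefore a description and no test of a group. The limits are looser when applied to part of the UMIs.

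The number of other genes that differed depended on the CPM added. Of 9342 genes with at least 50 UMIs in the kept cells, 20 (0.214%) were at least 2-fold higher in members than in all other kept cells, with 10 CPM added to both levels, and 229 (2.45%) at least 2-fold lower. With 1 CPM added in place of 10, the counts were 194 higher and 1176 lower. With genes read from UMIs not used to choose the cells they were 86 and 396. That reading used 139 chosen cells, only part of the UMIs and a minimum of 25 UMIs per gene. Its counts are therefore not over the same genes and cells and cannot be set directly against 20 and 229. The rule genes are 3 of the 20. The median log2 fold over all genes was -0.04, and 90% of genes fell between -0.69 and 0.48. Of the 229 lower genes, 168 were also 2-fold lower than in *epcam*-high cells. In all, 711 genes (7.61%) were 2-fold lower than in *epcam*-high cells. Against the other kept cells without the *epcam*-high ones, 14 genes (0.15%) were higher and 94 (1.01%) lower. Against the other cells passing the limits, 41 (0.439%) were higher and 135 (1.45%) lower.

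Of the genes with the highest folds, several rested on 1 to 3 cells. *igfbp6a*, an insulin-like growth factor binding protein, had a log2 fold of 2.84, but its 70 UMIs came from 4 members with 42, 22, 5 and 1. *arf4b* had 39 of its 42 UMIs and *matn4*, a matrilin of cartilage matrix, 14 of its 15 UMIs in a single member. *c7b*, a complement C7 gene, stood at 348 CPM in members against 103 CPM in all other kept cells, a log2 fold of 1.67, and was found in 48 members (23.3%). The 3 highest members held 73, 58 and 25 of its 283 UMIs, and without them the fold was 0.60. With the 3 members highest for each gene left out, 6 of the 20 genes were still at least 2-fold higher: the rule genes, *krt94*, *aldh1a3* and *mustn1a*.

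*krt94*, *aldh1a3*, *mustn1a* and *vim* were found across many members. *krt94*, a keratin gene, stood at 639 CPM in members (585 to 697, in 41.7% of cells) against 227 CPM in all other kept cells (23.9%) and 148 CPM in *epcam*-high cells, a log2 fold of 1.46 against all others. *aldh1a3*, a retinaldehyde dehydrogenase that makes retinoic acid, stood at 356 CPM (317 to 400, in 51.9%) against 143 CPM (24.4%). *mustn1a*, named for its expression in the musculoskeletal system, stood at 119 CPM (96.7 to 146, in 24.8%) against 39.98 CPM (11.5%). *vim*, the mesenchymal intermediate filament vimentin, stood at 647 CPM (592 to 704, in 73.3%) against 304 CPM (46.3%). With 1000 UMIs per cell, *aldh1a3* was found in 24.8% of members and 11.3% of the others, *krt94* in 27.2% and 12.1%, and *vim* in 43.7% and 23.0%. In cells chosen on the random split, read on the unused UMIs, *mustn1a* stood at 57.95 CPM (33.8 to 92.8) against 41.7 CPM in all others. Its interval there spans the level of the others. In the same reading *krt94* stood at 634 against 238 CPM, *aldh1a3* at 426 against 143 CPM and *vim* at 648 against 302 CPM. These genes had been picked for a high fold over all UMIs, the unused ones included. The reading is therefore a description and no independent check.

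By a set rule, the 20 genes with the highest fold among those found in at least 20% of members, rule and limit genes left out, were named. Besides these 4 and *c7b*, they included both *gfpt2* and *uap1*, enzymes of the pathway that makes UDP-N-acetylglucosamine, the sugar donor for hyaluronan and glycosylation. *gfpt2* stood at 343 CPM in members against 186 CPM in all other kept cells, and *uap1* at 151 against 72.0 CPM. Passing cells with 1 rule gene held *gfpt2* at 307 CPM, near the level of members, and *uap1* at 105 CPM. Against the other cells passing the limits the log2 folds were 0.38 for *gfpt2* and 0.76 for *uap1*. *pmp22b*, a tetraspan membrane protein gene, was the most abundant of the 20, at 2410 CPM in members (86.4% of cells) against 1259 CPM (76.6%). *itga5*, the alpha subunit of the fibronectin receptor, stood at 183 against 93.2 CPM, and *cremb*, a cAMP-responsive transcription factor, at 139 against 66.0 CPM. *plat*, the tissue plasminogen activator, stood at 131 against 64.1 CPM, with 28 of its 107 UMIs in 1 member and a log2 fold of 0.37 without the top 3. The others were *phc2b*, *slc12a7b*, *pora*, *siah2l*, *add3a* and 4 genes without a descriptive name, with log2 folds from 0.82 to 1.13.

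**Figure D2:**
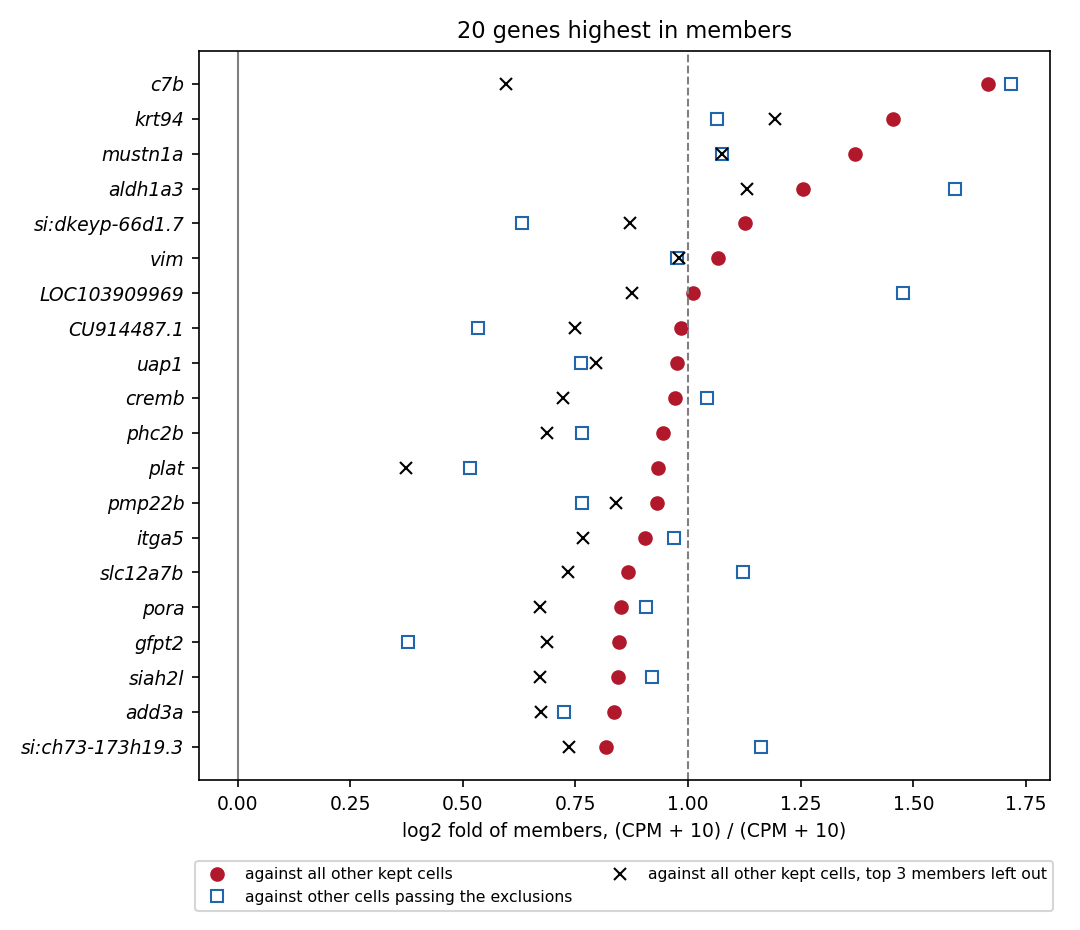
Log2 fold of members for the 20 genes highest in members, against all other kept cells (red circles) and other cells passing the limits (blue squares), and against all other kept cells with the 3 highest members of each gene left out (crosses); the dashed line marks 2-fold. *c7b* moves from 1.67 to 0.60 when 3 members are left out, and *krt94* lies above 1 in all 3 readings.

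The choice of 20 genes for their high fold fixes the sign against all other kept cells, so that sign is no result in itself.

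Of the 10 lowest named genes, 9 were lower in members than in *epcam*-high cells and 10 were lower than in remaining cells. Against *sfrp2* cells 4 were lower and 6 higher, and against *mamdc2b*-high cells 5 were lower and 5 higher. The genes had been picked for a low fold against all other kept cells, which fixes the sign against that pool. *krt5*, a keratin of the basal epidermis, stood at 145 CPM in members against 4264 CPM in all other kept cells, and it was at 28899 CPM in *epcam*-high cells. *bglapl*, an osteocalcin-like gene of bone-forming cells, stood at 50.4 CPM against 1149 CPM. *col10a1b*, a type X collagen gene, stood at 299 CPM in members against 2242 CPM, and 158 of its 243 member UMIs were in 1 cell.

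Type I collagen was lower in members than in most other groups. *col1a2* stood at 2585 CPM in members (2476 to 2698), against 7517 CPM in *sfrp2*, 11165 CPM in *mamdc2b*-high and 11648 CPM in remaining cells, and 7534 CPM in all other kept cells. Of the groups compared, *epcam*-high cells alone were lower, at 1468 CPM. *col1a1a* stood at 1251 CPM in members against 4090 CPM in all other kept cells (log2 fold -1.70), and *col1a1b* at 1409 against 3812 CPM (-1.43). *sparc*, a collagen-binding matrix protein, stood at 2317 against 5141 CPM and *postnb*, a periostin, at 200 against 614 CPM. Of 24 fibroblast matrix genes measured, 0 were 2-fold higher and 6 were 2-fold lower, with a median log2 fold of -0.20. Over all genes measured, 0.214% were 2-fold higher and 2.45% lower, with a median of -0.04.

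The fibroblast label was read against genes it should hold. *dcn*, the proteoglycan decorin, was found in 78.6% of members at 908 CPM, against 881 CPM in all other kept cells and 257 CPM in *epcam*-high cells. *lum*, the proteoglycan lumican, was found in 77.2% at 940 CPM, against 1140 CPM and 76.6 CPM. *twist1a*, a mesenchymal transcription factor, was found in 66.0% at 438 CPM, against 340 CPM and 51.7 CPM. *col1a2* was found in 95.6% of members, but also in 91.1% of *epcam*-high cells, so its share did not set members apart from epithelial cells. The levels of *dcn*, *lum* and *twist1a* stood well above those of *epcam*-high cells, which the *epcam* limit had put out. Passing cells with no rule gene held *dcn* at 867 CPM and *lum* at 1157 CPM. These 2 levels therefore did not set members apart from other passing cells. *pdgfra*, a receptor of mesenchymal cells, was found in 13.6% of members at 39.3 CPM, against 38.4 CPM in all other kept cells. Of 23 fibroblast regulators measured, 0 were past 2-fold either way, with a median log2 fold of 0.02, and *osr1* stood at 104 CPM against 67.7 CPM. Of 13 small leucine-rich proteoglycans, 0 were higher and 3 lower, *bgna*, *aspn* and *fmoda*, with a median of -0.28. Beside both lists, 0.214% of all genes measured were 2-fold higher and 2.45% lower, with a median of -0.04. The reporter transcript *EGFP* was found in 49.0% of members at 193 CPM, against 42.5% of all other kept cells at 176 CPM.

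Some genes that did not enter the rule were graded by the number of rule genes found. Of these, *aldh1a3*, *vim* and *pmp22b* had been picked for a high fold in members, which largely fixes that members stood highest. *col1a2* had been picked for a large fold among the fibroblast matrix genes, which likewise largely fixes that members stood lowest. *aldh1a3* stood at 356 CPM in members, 177 CPM in passing cells with 1 rule gene and 76.2 CPM with none. *vim* stood at 647, 432 and 266 CPM and *pmp22b* at 2410, 1755 and 1231 CPM in these groups, while *col1a2* ran the other way, at 2585, 8175 and 11829 CPM. *ptgdsb.2*, a lipocalin-type prostaglandin D synthase gene, stood at 4565, 3581 and 2909 CPM. *lum* was nearly level, at 940, 1137 and 1157 CPM, and *dcn* was not graded, at 908, 984 and 867 CPM. Median depth also ran in this order, at 3726, 3231 and 2987 UMIs, and its part in these levels was not tested. Members were 4.38% of the passing cells in the shallowest of 4 equal classes by UMIs and 11.3% in the deepest.

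**Figure D3:**
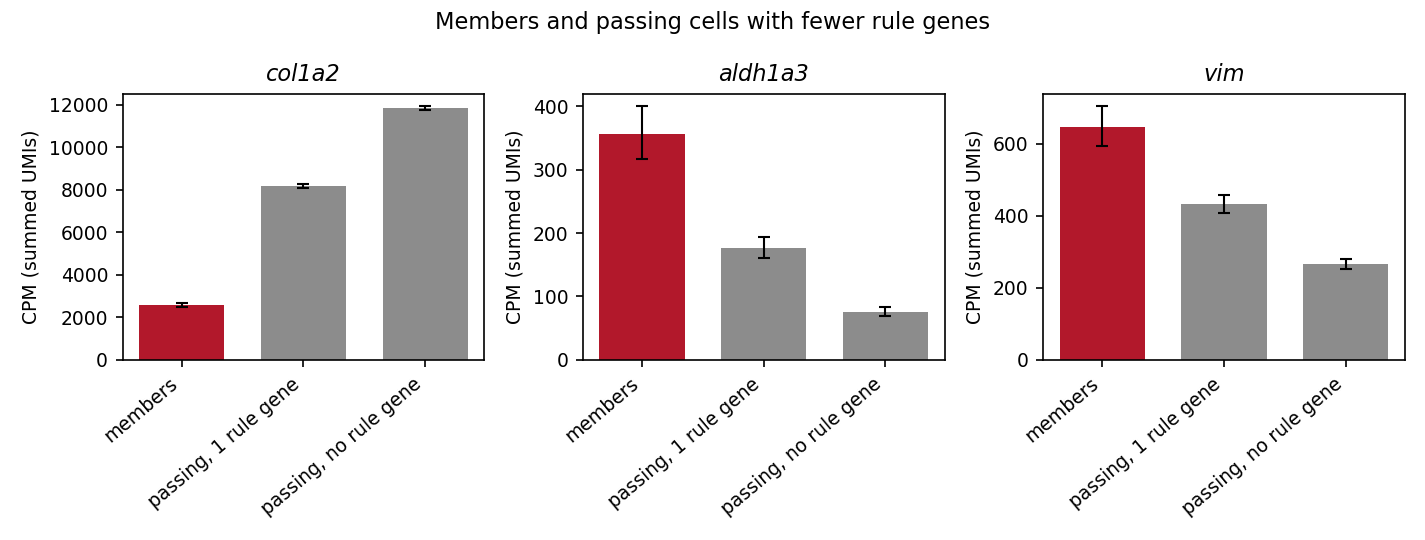
Levels of *col1a2*, *aldh1a3* and *vim* (CPM of summed UMIs, axes from 0) in members (red) and in passing cells with 1 or no rule gene (grey); error bars are 95% Poisson intervals. Passing cells with 1 rule gene stood between members and cells with none in each panel, for *col1a2* at 8175 CPM between 2585 and 11829 CPM.

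Other measured genes of the rule genes' families and pathways were not past 2-fold, but lists this short would seldom hold such a gene. Over all genes measured, 0.214% were 2-fold higher and 2.45% lower, with a median log2 fold of -0.04. For genes at a few CPM, such as *il15*, the CPM added to both levels also kept folds small. Whether these pathways differed in members was therefore not tested by the counts. Of 9 GLI, GLIS and Hedgehog pathway genes measured, *glis1b* alone was past 2-fold. *glis1a* stood at 8.60 CPM in members against 11.7 CPM, and the Hedgehog transducer *smo* at 7.38 against 12.8 CPM. Of 4 RFX genes, *rfx2* alone was past 2-fold, and *rfxap* stood at 55.3 against 44.3 CPM. Of 13 cilia genes, 0 were past 2-fold either way and the median log2 fold was 0.10. Of 5 interleukin 15 pathway genes, *il15l* alone was past 2-fold, while *il15* itself stood at 3.69 against 8.85 CPM and *jak1*, a kinase of its receptor, at 182 against 158 CPM. Of 16 genes of retinoic acid metabolism and binding, *aldh1a3* was higher and *cyp26b1*, which degrades retinoic acid, was lower, at 78.7 CPM in members against 172 CPM. *rdh10a*, which makes retinaldehyde, stood at 34.4 against 15.5 CPM, below 2-fold.

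Genes raised by tissue dissociation were read for stress. Of 32 immediate-early genes, 0 were 2-fold higher and 2, *egr3* and *egr2b*, lower, with a median log2 fold of 0.13 against all other kept cells. Of all genes measured, 0.214% were 2-fold higher and 2.45% lower. *fosab* stood at 4790 against 5943 CPM and *nr4a1* at 242 against 206 CPM. Heat shock genes summed to 58278 CPM in members, against 49608 CPM in *sfrp2*, 45631 CPM in remaining, 40961 CPM in *mamdc2b*-high, 53681 CPM in *epcam*-high and 47762 CPM in all other kept cells. Of 18 measured, 0 were past 2-fold and 13 were above 0, with a median of 0.24 against -0.04 over all genes, and with *hsp90aa1.2* at 9429 CPM in members against 6980 CPM. The mitochondrial share had a median of 0.630% in members, and ribosomal protein genes took 20.2% of the UMIs of members against 21.1% in all other kept cells.

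The members differed among themselves by which rule genes were found. *glis1b* with *rfx2* was found in 51 members, *glis1b* with *il15l* in 55, *rfx2* with *il15l* in 76 and all 3 in 24. *c7b* stood at 887 CPM in *glis1b* with *il15l* members, 320 CPM in *glis1b* with *rfx2*, 163 CPM with all 3 and 82.7 CPM in *rfx2* with *il15l*. The first value rested on 2 cells, which held 73 and 58 of its 178 *c7b* UMIs. Without them it was 252 CPM (185 to 335). With the 2 highest cells left out of every combination, a reading added after seeing the data, *glis1b* with *il15l* stayed highest. *c7b* then stood at 158 CPM (105 to 228) in *glis1b* with *rfx2*, 41.4 CPM (11.3 to 106) with all 3 and 52.2 CPM (29.85 to 84.8) in *rfx2* with *il15l*. The interval of *glis1b* with *rfx2* overlapped that of *glis1b* with *il15l*. *aldh1a3* was alike in the 4, from 316 to 389 CPM, and *krt94* ran from 473 to 861 CPM. Of the 20 named genes, 20, 20, 19 and 20 had a fold above 0 in the 4 combinations, in the order given with all 3 last. These genes had been picked for a high fold in members, and the 4 combinations are parts of the same members. The pick therefore largely fixes these signs, and the counts do not test whether the combinations are alike. *col1a2* stood at 1635, 2930, 3289 and 1568 CPM in the same order.

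Markers of other cell types differed in direction between lists, and some rested on single members. Osteoblast markers summed to 856 CPM in members against 5260 CPM in all other kept cells. By group they summed to 13241 CPM in remaining, 565 CPM in *sfrp2*, 165 CPM in *epcam*-high and 152 CPM in *mamdc2b*-high cells. Members were thus below remaining cells only, among these groups. Of the members, 120 held none of these markers and 5 held at least 10 UMIs of them, the highest 233. One member with 158 *col10a1b* and 98 *col10a1a* UMIs had 10465 UMIs in all. *bglap*, which defines mature osteoblasts, stood at 49.2 against 2834 CPM. Hemoglobin and other erythrocyte markers stood at 27.0 CPM in members against 1.25 CPM, all 22 UMIs in 1 member. Mural cell markers summed to 749 CPM in members against 512 CPM in all other kept cells. By group they summed to 606 CPM in *sfrp2*, 520 CPM in *mamdc2b*-high, 469 CPM in remaining and 62.5 CPM in *epcam*-high cells. Of 5 measured, 5 were above 0 and 0 past 2-fold, with a median log2 fold of 0.50 against -0.04 over all genes. *tagln* supplied 589 CPM of the sum in members, and the part of mural cells in the members' profile was not tested. *acta2*, smooth muscle actin, had 31 of its 36 UMIs in 1 member and *myh11a* was at 0. The log2 fold of *acta2* was 0.46 with all members and -1.52 without its 3 highest members. Epithelial markers summed to 5186 CPM in members, against 3611 CPM in *sfrp2*, 3327 CPM in remaining, 3447 CPM in *mamdc2b*-high, 54919 CPM in *epcam*-high and 11250 CPM in all other kept cells. *krt4* (2602 CPM) and *krt91* (2351 CPM) made up most of the sum in members. *krt4* stood at only 160 CPM in *epcam*-high cells and so did not mark epithelial cells here, while *krt91* stood at 15283 CPM there. In members, *tp63*, *krt17*, *cyt1*, *cyt1l* and *agr1* were at 0. Immune markers summed to 29.5 against 268 CPM, endothelial to 13.5 against 25.5 CPM, chondrocyte to 36.9 against 56.3 CPM, superficial chondrocyte to 8.60 against 43.6 CPM, ligamentocyte to 114 against 251 CPM, Schwann cell to 8.60 against 5.83 CPM, pigment cell to 1.23 against 2.29 CPM and muscle to 7.38 against 4.52 CPM. By group, immune markers summed to 1569.5 CPM in *epcam*-high, 85.7 CPM in remaining, 47.6 CPM in *mamdc2b*-high and 37.1 CPM in *sfrp2* cells. Chondrocyte markers summed to 94.65 CPM in remaining, 32.5 CPM in *mamdc2b*-high, 27.5 CPM in *sfrp2* and 22.55 CPM in *epcam*-high cells. Superficial chondrocyte markers summed to 109 CPM in remaining, 5.79 CPM in *sfrp2*, 2.82 CPM in *epcam*-high and 2.17 CPM in *mamdc2b*-high cells. No doublet caller was run, and the part of mixed barcodes in these values was not tested.

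The cells nearest to the members were mostly not members. Nearest cells were found over 2000 variable genes without the rule genes and the 3 limit genes. Of the 20 nearest cells of each member, 10.6% were members, against 5.26% of all kept cells. A further 37.99% were remaining cells, 16.0% *sfrp2* cells, 2.50% *mamdc2b*-high and 0.146% *epcam*-high cells. The share of the own group among the nearest cells was 37.0% for *sfrp2* cells, 50.55% for *mamdc2b*-high cells, 62.4% for remaining cells and 92.5% for *epcam*-high cells. These groups made up 13.55%, 7.25%, 41.64% and 8.93% of all kept cells. Each share depends on the size of the group. Of the 206 members, 39 had no member among the 20 nearest cells, 84 had 1 or 2, 67 had 3 or 4 and 16 had 5 or more, with 6 the highest. Passing cells with 1 rule gene made up 27.9% of the nearest cells, against 18.9% of all kept cells. In these genes the members were thus mixed with other cells, and the name *glis1b* and *rfx2* fibroblasts describes cells picked by the rule.

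In the *sox10:DsRed*-enriched library, 0 of 242 kept cells met the rule, which allows a share of up to 1.24%. Of these cells, 236 had no rule gene, 5 had 1 and 1 had all 3. That cell held 3 *glis1b*, 1 *rfx2* and 7 *il15l* UMIs among 7381 but did not meet the limits. That library was shallower, and its 242 cells cannot show a share below this limit.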

How the data were processed

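The authors sorted cells from 50 jaw joints and processed the reads with Cell Ranger 3.0.0, against a GRCz11 reference that also held the reporter sequences. The deposited matrices hold raw UMI counts per gene and called barcode, with the barcodes and 36355 gene identifiers and symbols as text. The matrices still held barcodes outside the limits below.

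The values were computed with Python 3.11.15, numpy 2.4.6, scipy 1.17.1, pandas 2.3.3, scanpy 1.11.5 and scikit-learn 1.9.0. Barcodes with 500 to 2000 genes and at most 5% of UMIs on the 12 mitochondrial features were kept. UMIs were summed over cells and scaled to CPM, and folds were taken after adding 10 CPM, over genes with at least 50 UMIs in kept cells. No significance test was made, since each sort gave 1 library. The upper limit on genes was the only step against doublets. Nearest cells came from 30 principal components of log-normalized counts, without regression on mitochondrial share. The fold step was tested on simulated counts drawn from the mean profile of the library. These held no variation between cells, so folds that rest on a few cells were not tested by them. Free RNA was not removed.

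The named genes were the 20 with the highest and the 10 with the lowest fold against all other kept cells, found in at least 20% of members (higher) or of the other cells (lower), the rule and limit genes, and up to 4 genes of each list. The members and gene lists were chosen with earlier results of these data known. One gene that set a limit on the members, and results that need it, are not reported here.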

Additional observations from a re-analysis of the deposited data

How the results depend on the processing

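The 206 members became 215 with at least 200 genes, 197 with at most 1500 genes and 206 with a mitochondrial limit of 10%. They became 72 after thinning to 1000 UMIs before the choice, 24 with all 3 rule genes, 946 with at least 1, 100 with *rfx2* and *il15l*, 79 with *glis1b* and *il15l*, 75 with *glis1b* and *rfx2*, and 530 without the limits on other genes. The 20 genes 2-fold higher became 233 after thinning, 387 with all 3 rule genes, 46 with *rfx2* and *il15l*, 70 with *glis1b* and *il15l*, 82 with *glis1b* and *rfx2*, 32 without the limits, 194 with 1 CPM added, 86 with genes measured on UMIs not used for the choice and 41 against passing cells. Leaving out the 3 highest members of each gene, an alternative added after seeing the data, gave 6. The 229 genes 2-fold lower became 1006 after thinning, 1093 with all 3 rule genes, 380 with *glis1b* and *il15l*, 402 with *glis1b* and *rfx2*, 124 without the limits, 1176 with 1 CPM added, 396 on the unused UMIs, 94 without *epcam*-high cells and 135 against passing cells. The counts on the unused UMIs were for 139 chosen cells and a minimum of 25 UMIs per gene. The cause of these moves was not tested. Members were 11.7% of the nearest cells after thinning, against 10.6%. In the *sox10:DsRed*-enriched library 4 cells qualified with at least 1 rule gene. No paired analysis was possible because each sort gave 1 library.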
